A study of Homo sapiens with 9 samples.

Results

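HL-60 cells made resistant to cytarabine, called HRA, were compared with the parental HL-60 cells over every gene that had a normalized read count of at least 10 in at least 3 of the 6 libraries of these 2 groups. These were 12261 of the 20637 genes in the table, and the 6 libraries were part of 9. HL-60 is an established human acute myeloid leukaemia line of promyelocytic cells. The labels name no drug for the parental HL-60 group, and the HRA group was HL-60 resistant to Ara-C (cytarabine) and grown with 100 nM Ara-C. The third group of the series, HRD, was HL-60 resistant to DNR (daunorubicin) and grown with 30 nM DNR. Each group had 3 biological replicates, and libraries were made from polyadenylated RNA with a stranded kit. HRA is 1 resistant line kept with its drug, so the libraries sample the spread within that line, and resistance, continued exposure to the drug and the history of the line cannot be told apart. A bulk library also cannot separate fewer cells of a type from less RNA per cell.

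Cytarabine is a cytidine analogue that enters cells through nucleoside transporters, is phosphorylated by deoxycytidine kinase and stops DNA synthesis once it is built into DNA. Dephosphorylation, deamination and competition from the cell's own deoxycytidine triphosphate all lower its active form. The cells studied here are arrested in granulocyte development at a stage at which primary granule proteins, such as myeloperoxidase and the neutrophil serine proteases, are made. They can take up features of granulocytes, monocytes or eosinophils under suitable inducers.

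Over all 12261 genes, 1140 were higher in HRA, a background of 9.3%, and 764 were lower, a background of 6.23% (limma on log2(value + 1), adjusted p below 0.05 by Benjamini-Hochberg over the full set). At least 2-fold changes were called for 262 higher genes (2.14%) and 132 lower genes (1.08%). Most changes were small: the median size of a called change was 0.56 on the log2 scale, and 25 genes rose and 10 fell by at least 3 on that scale. Without HRA replicate 1 the counts were 578 higher and 330 lower, and without HRA replicate 2 they were 581 and 371. Without parental replicate 2, 437 genes were lower, without HRA replicate 3, 469 were lower, and 1202 (9.8%) in a fit with a replicate block. Leaving out replicate 2 of every group gave 481 and 229. In each of the 6 fits that left out 1 library, 490 genes remained higher and 279 remained lower. Named genes said to have risen or fallen kept their call in all 6 of those fits unless stated otherwise. Of the tested genes, 69 passed the filter through the HRA libraries alone, of which 43 were higher, and 44 through the parental libraries alone, of which 30 were lower. A gene of this kind could differ in 1 direction only, so its difference is a description. Named genes of this kind are ADAM23, AADACL2-AS1, RASGRP3 and TP63 (HRA alone) and FSTL5, IGFBP2, FPR2, ZNF430 and ZNF32 (parental alone). Log2 values are fitted differences with their standard errors, and errors over libraries have n = 3 in each group.

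The 6 libraries held 20822709 to 58534264 reads, and 3 reads corresponded to a normalized count of 1.68 to 4.50. In a principal component analysis of these 6 libraries, component 1 (56.8% of the variance) separated HRA from parental cells, and component 2 (16.8%) held replicate 2 of both groups on one side. The summed level of 12 defining promyelocyte markers was 320616 to 365994 in parental cells and 301886 to 335832 in HRA. Most of that sum was MPO, at 274388 to 314199 in parental cells and 250410 to 279660 in HRA. It therefore says little about the other markers of the list. ELANE, the neutrophil elastase gene, was the 1 marker of that list below 10 in all 6 libraries. Markers of other cells were few: CD14 and FCGR3A of monocytes, CD22 of B cells, CD6 and KLRB1 of T and natural killer cells, and DCN and CDH1 of fibroblasts and epithelium had no reads. Of 9 to 14 markers of each of those other types in the table, 2 or 3 passed the filter.

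**Figure D1:**
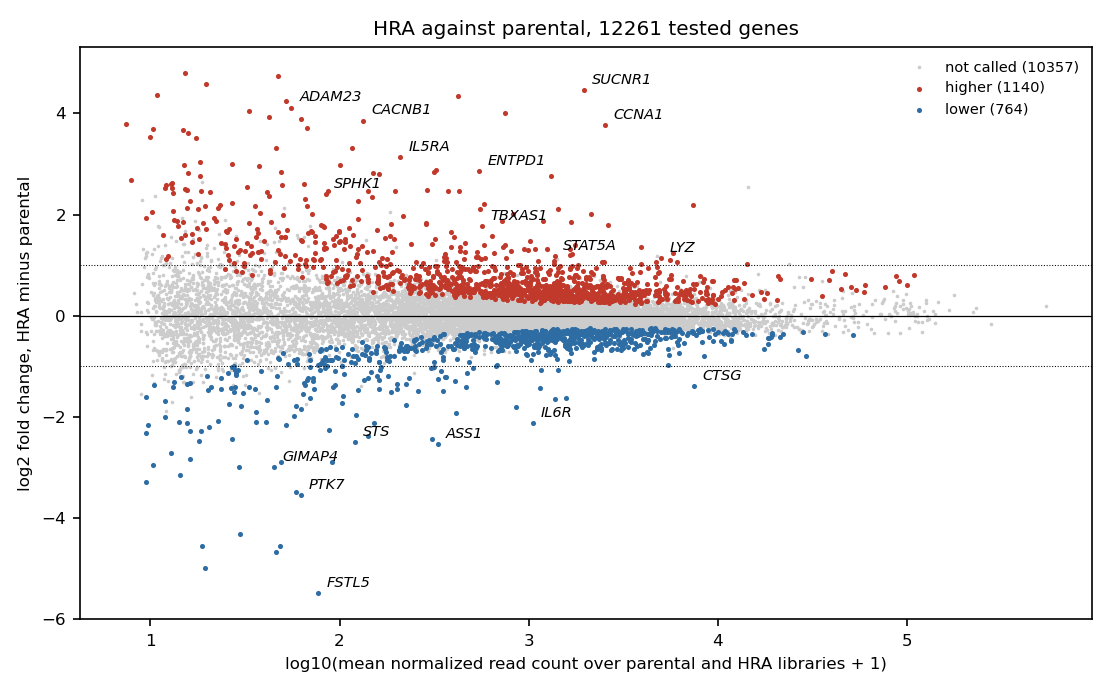
Log2 fold change of HRA over parental cells (vertical axis) against the log10 mean normalized read count plus 1 over the 6 libraries (horizontal axis), 1 point a tested gene, with 1140 called higher genes in red and 764 called lower genes in blue. Dotted lines mark a 2-fold change, and SUCNR1 and CCNA1 lie at the upper right.

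The gene with the smallest adjusted p was SUCNR1, the cell surface receptor for the metabolite succinate. Its normalized counts were 139.7, 184 and 168 in parental replicates 1, 2 and 3 and 3810.5, 4951 and 2489 in HRA, a log2 rise of 4.46 ± 0.22 (SE; adjusted p = 5.01e-06). The groups did not overlap, which held for 38.5% of all tested genes and for 1900 of the 1904 called genes. Absence of overlap was also a condition for naming the largest changes, so it adds no support to a call. For SUCNR1, HRA replicate 3 was the lowest of its group. The long non-coding RNA gene AADACL2-AS1, within which SUCNR1 lies in the RefSeq annotation, went from 0 reads in all parental libraries to 87 in HRA, which is at least 31.6-fold higher against a floor of 3 reads over the group. Reads of such overlapping genes may be counted for either one. CCNA1, the cyclin of male meiosis that myeloid leukaemias also make, read 268, 520.2 and 273 in parental cells and 4654, 6094 and 3428 in HRA, a rise of 3.77 ± 0.28 (adjusted p = 3.29e-05). CACNB1, a regulatory subunit of voltage-gated calcium channels, stood between 13.5 and 19.5 in parental cells and at 279, 253 and 212 in HRA (3.86 ± 0.28). The calcium sensor gene NCS1 went from 46.6, 65.03 and 40.5 to 188, 196 and 127 (1.73 ± 0.25). The groups did not overlap for any of these 3 genes either.

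Further large rises started from low counts in parental cells. SCG2, a secretogranin of regulated secretion, read 19.1, 19.6 and 19.5 in parental cells and 192, 296 and 144 in HRA (3.31 ± 0.25). The chemokine gene CCL23 read 19.6, 20.9 and 23.98 in parental cells against 179, 200.2 and 154 in HRA (2.99 ± 0.30). PTCH1, the receptor that restrains hedgehog signalling, read 24.7, 58.9 and 31.5 in parental cells against 239, 302 and 239 in HRA (2.81 ± 0.27). The G1 cyclin CCND1 read 60.05, 117 and 55.5 in parental cells against 591, 689 and 368 in HRA (2.85 ± 0.28). Each of these 4 genes was separated between the groups, and HRA replicate 2 was the highest library for all 4. ADAM23, an adhesion protein of the metalloprotease family without protease activity, rose by 4.12 ± 0.38 and ZNF704, a zinc finger gene, by 4.35 ± 0.29. CNTNAP3B rose by 3.89 ± 0.40, with the reservation that it has near-identical copies between which reads may be split. DRAM1, a lysosomal membrane protein of autophagy, rose by 2.88 ± 0.33.

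ENTPD1 encodes CD39, the surface enzyme that breaks extracellular ATP down to AMP. It read 107, 141 and 142 in parental cells and 864, 1303 and 733 in HRA, a rise of 2.85 ± 0.21 (adjusted p = 3.29e-05), and the annotation places the antisense gene ENTPD1-AS1 over it. Hepatocyte growth factor (HGF) read 2796, 4195 and 1434 in parental cells against 11870.5, 15389 and 8587 in HRA (2.18 ± 0.37). The parental libraries of HGF spread widely, with replicate 3 lowest, and still lay below every HRA library. LPL, lipoprotein lipase, read 169, 145 and 23.98 in parental cells and 1487, 1461 and 1202 in HRA (4.02 ± 0.57), and the rise came to 3.13 once parental replicate 3 was left out. BHLHE41, a repressor of the circadian clock, rose by 1.41 ± 0.11, from 859.8, 1103 and 939.8 to 2548, 2757 and 2365.

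**Figure D2:**
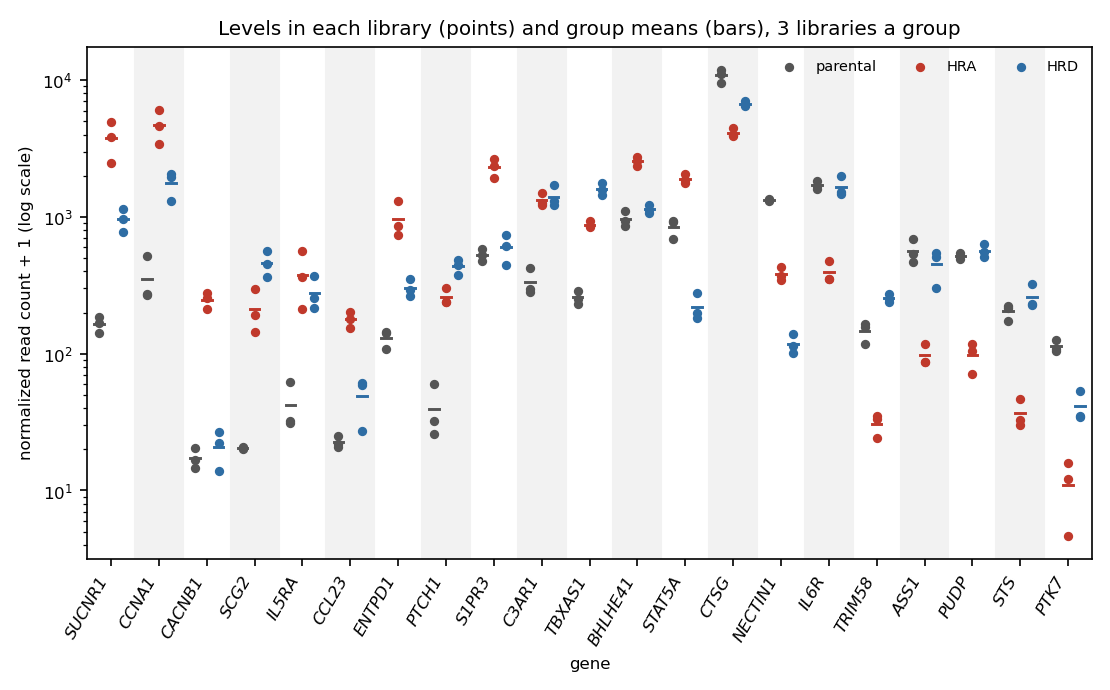
Normalized read count plus 1 on a log axis for 21 genes, 1 point a library and a short bar for the mean of 3 libraries, with parental cells in grey, HRA in red and HRD in blue. The red and grey points of each gene do not overlap, the first 13 genes being higher and the last 8 lower in HRA.

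Among the largest falls were those of PTK7, IL6R, NECTIN1 and IGFBP2. PTK7, a WNT co-receptor with an inactive kinase domain, read 107, 104 and 126 in parental cells and 11.2, 14.9 and 3.65 in HRA, a log2 difference of −3.55 ± 0.41. IL6R, the interleukin 6 receptor, read 1818, 1692 and 1602 in parental cells against 351, 352 and 475 in HRA (−2.13 ± 0.14, adjusted p = 2.51e-05). NECTIN1, an adhesion molecule of cell junctions, read 1347, 1313 and 1326 in parental cells against 343, 432 and 368 in HRA (−1.81 ± 0.14). Parental values of NECTIN1 and IL6R were close to each other, and the HRA libraries lay far below them. IGFBP2, which binds insulin-like growth factors, read 197, 87.1 and 40.5 in parental cells against 4.89, 9.47 and 7.31 in HRA (−3.49 ± 0.53), so the parental libraries were far apart but above all HRA libraries. TRIM58 (−2.26 ± 0.20), TESPA1 (−2.13 ± 0.25), RASGRF1 (−1.92 ± 0.20), which activates Ras, and PXN (−1.77 ± 0.25), the focal adhesion adaptor paxillin, also fell. FSTL5 read 189.7, 226 and 35.97 in parental cells and 2.79, 0 and 3.655 in HRA (−5.49 ± 0.76), where it had 7 reads over the 3 libraries. Its difference was −6.32 if parental replicate 3 is left out and −4.80 if HRA replicate 2 is.

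On the short arm of the X chromosome, the neighbours STS, steroid sulfatase, and PUDP, a pseudouridine phosphatase, fell to a similar extent. STS read 223, 216 and 172 in parental cells and 29.3, 45.99 and 31.7 in HRA (−2.50 ± 0.22), and PUDP read 494, 541 and 519 in parental cells against 70.5, 104 and 117 in HRA (−2.43 ± 0.18). Both were below all parental libraries in every HRA library. Of 14 tested genes of a list for this stretch, 3 fell (21.4%) and 2 rose (14.3%), with a median of −0.10. All genes had 6.23% lower and 9.3% higher. In this list, 2 members were lower with any 1 library left out. The risen members numbered 1 without parental replicate 1 or 3 or HRA replicate 1 or 3 and 0 without HRA replicate 2. The 250 bases before the RefSeq start of each gene (GRCh38.p14) are shown because the pair moved together, in lower case with CpG dinucleotides in capitals. The windows are chrX:7147040-7147289 on the + strand for STS and chrX:7148154-7148403 on the − strand for PUDP, 864 bases apart, and the 2 genes are transcribed towards each other across that gap.
STS: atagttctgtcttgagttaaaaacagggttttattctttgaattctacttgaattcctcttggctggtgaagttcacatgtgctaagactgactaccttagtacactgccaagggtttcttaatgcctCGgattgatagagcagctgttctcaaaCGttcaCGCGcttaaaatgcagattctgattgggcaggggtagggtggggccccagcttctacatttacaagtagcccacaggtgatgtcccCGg
PUDP: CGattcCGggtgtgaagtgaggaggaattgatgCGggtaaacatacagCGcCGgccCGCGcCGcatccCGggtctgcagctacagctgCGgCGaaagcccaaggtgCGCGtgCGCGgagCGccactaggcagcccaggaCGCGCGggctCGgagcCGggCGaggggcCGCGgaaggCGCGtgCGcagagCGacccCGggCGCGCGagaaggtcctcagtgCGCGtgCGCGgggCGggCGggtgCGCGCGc
The STS window holds 5 CpG (the letters CG, the same on both strands) and the PUDP window 41, against a median of 21 over 9504 tested genes with a window, 99.2% of which hold at least 1, so the neighbours have start regions of unlike base composition. Because the transcribed regions overlap on opposite strands across that gap and how the counting treated strand is not given in the sources used here, a share of the reads of one may be counted for the other.

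ASS1, which makes argininosuccinate for arginine synthesis, read 686, 536 and 468 in parental cells and 86.6, 116 and 85.3 in HRA, a log2 difference of −2.54 ± 0.23. It lies next to NCS1, which rose. Of 14 tested genes of arginine and urea cycle metabolism, 2 rose and 2 fell (14.3% each, against 9.3% and 6.23% of all genes). Without HRA replicate 1, 1 fell. The risen genes were GATM (0.60 ± 0.11), which moves the amidino group of arginine into creatine synthesis, and AGMAT (0.77 ± 0.14), agmatinase. The cationic amino acid transporter SLC7A2, which carries arginine, rose from 1604, 1642 and 1662 to 3591, 3149 and 3464 (1.05 ± 0.11), and the mitochondrial ornithine carrier SLC25A15 fell by 0.47 ± 0.10. Of 31 amino acid transporters, 5 rose and 3 fell (16.1% and 9.68%). Among them SLC1A5, a glutamine carrier, rose by 0.43 ± 0.07 and SLC25A12, a mitochondrial aspartate carrier, fell by 0.50 ± 0.10. The risen transporters numbered 2 without HRA replicate 1 and 3 without HRA replicate 2.

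Genes that handle cytarabine itself were called at shares not far from those of all genes. Of 20 tested genes of its uptake, phosphorylation and breakdown, 3 rose and 1 fell (15% and 5%, against 9.3% and 6.23% of all genes), with a median of 0.12 against −0.01 for all tested genes. The risen members numbered 1 without parental replicate 1 or 3 or HRA replicate 1 and 0 without HRA replicate 2, and 6 rose in the blocked fit. The member that fell was DCK, the kinase that activates the drug, at 4061, 4252 and 3816 in parental cells against 3246, 3191 and 3141 in HRA (−0.34 ± 0.09, adjusted p = 0.0231). Its groups did not overlap. DCK stayed called when parental replicate 3 was left out and in none of the other 5 fits with 1 library fewer, where its adjusted p reached 0.0807. The risen members were RRM1 (0.46 ± 0.10) and RRM2B (0.42 ± 0.11), subunits of the reductase that makes deoxynucleotides, and the thymidine kinase gene TK1 (0.52 ± 0.16). None of these 3 calls held in every fit with 1 library left out, where the adjusted p reached 0.0655, 0.117 and 0.157. RRM1 lies on chromosome 11 and RRM2B on chromosome 8, whose tested genes had median changes of 0.16 and 0.49. The transporter SLC29A1 read 5786, 4811 and 4069 in parental cells and 5114, 5252 and 4999 in HRA (0.08 ± 0.12, adjusted p = 0.676). The triphosphate hydrolase SAMHD1 read 1406, 1375 and 1581 in parental cells against 1761, 1571 and 1743 in HRA (0.22 ± 0.09, adjusted p = 0.116). SLFN11, which blocks stalled replication forks, read 4588, 5357 and 5069 in parental cells against 4971, 4879 and 5264 in HRA (0.01 ± 0.08, adjusted p = 0.938). Parental and HRA libraries overlapped for all 3 of these genes. GGH, which trims the glutamate tail of folates and lies on chromosome 8, rose by 1.09 ± 0.13.

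Of 34 DNA polymerase, primase and translesion genes, 4 rose and none fell (11.8% higher), and of 39 genes of excision and mismatch repair 4 rose and 3 fell (10.3% and 7.69%), shares near the 9.3% and 6.23% of all genes. Members of these lists with a stable call were the repair polymerase POLB on chromosome 8 (0.55 ± 0.08) and the single-strand break scaffold XRCC1 on chromosome 19 (0.51 ± 0.11). The counts were 1 without parental replicate 3 or HRA replicate 1 or 2 and 2 without HRA replicate 3 for risen polymerases and 2 without parental replicate 3 or HRA replicate 1 and 1 without HRA replicate 2 or 3 for risen repair genes. Fallen repair genes numbered 0 without parental replicate 2 or HRA replicate 1 or 2 and 1 without parental replicate 3 or HRA replicate 3. Of 22 Fanconi anaemia genes, 2 rose and 1 fell (9.09% and 4.55%). The fallen gene was UBE2T, a ubiquitin-conjugating enzyme on chromosome 1 (−0.64 ± 0.10), and the risen members numbered 0 without parental replicate 1 or 2 or HRA replicate 1, 2 or 3 and 1 without parental replicate 3. With the replicate block 3 rose and 2 fell.

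Among receptors for metabolites and lipid mediators, called genes were higher in HRA. Of 23 tested receptors for nucleotides, metabolites and prostaglandins, 8 rose and none fell (34.8% against 9.3% of all genes), with a median of 0.33, and 6 to 8 rose with any 1 library left out. After SUCNR1, PTGER4, a prostaglandin E2 receptor, read 481, 465 and 448 in parental cells and 1167, 1238 and 1015 in HRA (1.29 ± 0.11). GPR132, a receptor linked to oxidized fatty acids, rose by 1.54 ± 0.27 and HRH4, a histamine receptor of leukocytes, by 1.58 ± 0.29. Of 18 chemokine and chemoattractant receptors, 7 rose and 1 fell (38.9% and 5.56%, median 0.51). S1PR3, a receptor for sphingosine 1-phosphate, read 528, 585 and 478 in parental cells against 2374, 2658 and 1915 in HRA (2.12 ± 0.18), and C3AR1, the receptor for complement fragment C3a, read 284, 419.6 and 298 in parental cells against 1266, 1491 and 1218 in HRA (2.00 ± 0.17). Both were separated between the groups. FPR2, a formyl peptide receptor, read 15.7, 14.7 and 53.96 in parental cells against 2.09, 2.71 and 2.44 in HRA (−2.84 ± 0.52, and −2.25 without parental replicate 3). The risen members of this list numbered 4 without parental replicate 1 or 3 and 2 without HRA replicate 2, and 2 fell without parental replicate 1 and with the replicate block.

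Enzymes of lipid mediators changed in both directions. SPHK1, which makes sphingosine 1-phosphate, read 33.1, 15.9 and 31.5 in parental cells and 139, 164 and 118 in HRA (2.40 ± 0.42). The acid ceramidase gene ASAH1 on chromosome 8 rose by 0.69 ± 0.12, and B4GALNT1, which makes complex gangliosides, fell by 1.46 ± 0.19. In the whole sphingolipid list, 3 of 27 members rose and 3 fell (11.1% each, against 9.3% and 6.23% of all genes). The list median was −0.01. Without HRA replicate 1 or 2, 1 fell, and with the replicate block 5 rose. Of 17 arachidonate enzymes, 4 rose and 3 fell (23.5% and 17.6%), with a median of 0.25. TBXAS1, thromboxane synthase, read 231, 252 and 288 in parental cells against 838, 855 and 931 in HRA (1.77 ± 0.11, adjusted p = 2.51e-05), and ALOX5AP, the partner of 5-lipoxygenase in leukotriene synthesis, read 2801, 4846 and 2765 in parental cells against 7227, 11010.3 and 6276 in HRA (1.24 ± 0.27). HPGD, which inactivates prostaglandins, rose by 2.199 ± 0.44, while PLA2G4A, the phospholipase that frees arachidonate, fell from 887, 805 and 964 to 573, 539.8 and 546 (−0.67 ± 0.11). The fallen arachidonate enzymes numbered 1 without parental replicate 3 or HRA replicate 1.

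Of 43 genes of fatty acid, triglyceride and phospholipid synthesis, 11 rose and 1 fell (25.6% and 2.33%), with a median of 0.24. On chromosomes 7, 8, 11, 19 or 21, whose genes had raised medians, lie 5 of the 11, against 625 of all 1140 higher genes. In other lists this count ran from 0 of 7 risen chemokine and chemoattractant receptors to 4 of 4 risen excision and mismatch repair genes. PTDSS1, phosphatidylserine synthase on chromosome 8, read 3505, 3745 and 3215 in parental cells and 6343, 6294 and 6277 in HRA (0.86 ± 0.09). LPCAT3, which puts polyunsaturated chains into phospholipids, rose by 0.65 ± 0.10 and ACSL1, which activates fatty acids, by 0.56 ± 0.09. The risen genes numbered 7 without HRA replicate 1 or 2, and 3 fell with the replicate block. Of 52 lysosomal and autophagy genes, 13 rose and none fell (25%, median 0.19), 6 of the 13 on those 5 chromosomes, and 8 rose without HRA replicate 1. CTSB, a lysosomal cysteine protease, read 705, 729 and 586 in parental cells against 1228, 1247 and 1117 in HRA (0.83 ± 0.12). The protease gene TPP1 (0.59 ± 0.09) and the mannosidase gene MAN2B1 (0.72 ± 0.12) also rose.

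Among 33 genes of iron uptake, storage and haem synthesis, 8 rose and 3 fell (24.2% and 9.09%) while the list median was −0.08. STEAP3, which reduces iron in endosomes, read 554, 491 and 507 in parental cells and 946, 866 and 937 in HRA (0.82 ± 0.09). The metal importer SLC39A14 rose by 0.63 ± 0.09 and the mitochondrial iron importer SLC25A37 by 0.51 ± 0.10, both on chromosome 8, and ABCB10 on chromosome 1 fell by 0.53 ± 0.09. The risen genes numbered 5 without HRA replicate 1 or 2.

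Of 24 immune checkpoint and natural killer cell ligands, 11 rose and 1 fell (45.8% and 4.17%), with a median of 0.47, and 6 rose without HRA replicate 2. CD58, the ligand of CD2 on lymphocytes, read 1149, 1149.6 and 1108 in parental cells and 2325, 2362 and 2094 in HRA (0.99 ± 0.10). LAIR1, an inhibitory collagen receptor, read 2335, 2307 and 2263 in parental cells against 3896, 3781 and 3827 in HRA (0.74 ± 0.07), and SIGLEC7, an inhibitory receptor for sialic acid, rose by 3.32 ± 0.32 from counts of 5.05, 6.13 and 11.99 in the parental libraries. NECTIN1 was the member that fell.

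Of 39 genes of cytokine receptors, JAK kinases, STAT factors and SOCS proteins, 8 rose and 3 fell (20.5% and 7.69%). Over all genes, 9.3% were higher and 6.23% lower. IL5RA, the interleukin 5 receptor chain of eosinophils, read 31.4, 61.3 and 29.98 in parental cells and 361, 559 and 212 in HRA (3.14 ± 0.36). STAT5A, a transcription factor downstream of cytokine receptors, read 691, 930.0 and 920.3 in parental cells against 1783, 2048 and 1873 in HRA (1.18 ± 0.16), and LEPR, the leptin receptor, read 104, 102 and 98.9 in parental cells against 34.2, 37.9 and 53.6 in HRA (−1.28 ± 0.20). The risen members numbered 5 without parental replicate 3, 4 without HRA replicate 1 and 3 without HRA replicate 2. Of 15 receptor tyrosine kinases, 2 rose and 2 fell (13.3% each). RET read 1218, 1239 and 1219 in parental cells against 2477, 2429.6 and 2198 in HRA (0.95 ± 0.11) and FGFR1 read 1144, 1167 and 1076 in parental cells against 746, 789 and 842 in HRA (−0.51 ± 0.08). FGFR1 was 1 of 2 genes of chromosome 8 that fell, against 221 that rose. The risen kinases numbered 1 without parental replicate 1 or 3 or HRA replicate 1 or 2.

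Downstream of these receptors, 7 of 34 MAP kinase feedback and response genes rose and 4 fell (20.6% and 11.8%). RASGRP3, an activator of Ras, went from 3.37, 9.82 and 3.00 in parental cells to 34.9, 66.3 and 38.99 in HRA (3.00 ± 0.41), all parental values being under the filter's minimum, and SPRED1, a brake on the pathway, fell by 0.54 ± 0.11. The risen members numbered 2 without parental replicate 1 or HRA replicate 1 or 2 and 4 without parental replicate 2 or HRA replicate 3, and the fallen members 1 without parental replicate 2 or HRA replicate 1, 2 or 3 and 2 without parental replicate 3. Of 38 genes of the PI3 kinase and mTOR pathway, 4 rose and 2 fell, and 8 and 3 did with the replicate block. The shares of 10.5% and 5.26% were near the 9.3% and 6.23% of all genes. IRS2, the adaptor of insulin receptors, rose by 0.70 ± 0.11, EIF4EBP1, the repressor of cap-dependent translation on chromosome 8, rose by 0.65 ± 0.12, and SESN3, a stress-induced inhibitor of mTOR, and INPP4B, a lipid phosphatase, fell by 1.24 ± 0.17 and 1.23 ± 0.27. The risen members numbered 2 without HRA replicate 1 or 2. Of 40 genes of the TNF receptor family, caspases and inhibitors of apoptosis, 7 rose and 4 fell (17.5% and 10%). Through the HRA libraries alone, 1 of the 7 passed the filter. TNFRSF12A, the receptor for TWEAK, fell by 1.67 ± 0.35, MLKL, the effector of necroptosis, by 0.65 ± 0.13 and CFLAR, an inhibitor of caspase 8, by 0.54 ± 0.09. The risen members of this last list numbered 3 without parental replicate 1, 4 without parental replicate 3, 1 without HRA replicate 1 and 0 without HRA replicate 2.

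Genes of cell differentiation moved in different directions. CTSG, cathepsin G of primary granules, read 11187, 9565 and 11814 in parental cells and 3982, 4463 and 3914 in HRA (−1.39 ± 0.09, adjusted p = 2.51e-05), while MPO read 314199, 274388 and 297997 in parental cells against 279660.0, 250410.0 and 264367 in HRA (−0.16 ± 0.15, adjusted p = 0.509). Lysozyme (LYZ) read 2813, 3179 and 3435 in parental cells against 7265, 6504 and 6877 in HRA (1.13 ± 0.09). RNASE2, the eosinophil-derived neurotoxin, rose by 0.72 ± 0.14 and CEBPA, a transcription factor of granulocytes on chromosome 19, by 0.63 ± 0.12. Of 11 tested defining promyelocyte markers, 4 rose and 2 fell (36.4% and 18.2%, against 9.3% and 6.23% of all genes). The risen markers numbered 2 without parental replicate 3 or HRA replicate 1, 2 or 3. Besides CTSG, PRTN3 fell, from 2185, 1515 and 3570 in parental cells to 896, 549 and 798 in HRA (−1.64 ± 0.37). Its call was lost without HRA replicate 2, where 1 marker fell. Of 7 tested markers of mast cells, basophils and eosinophils, 5 rose (71.4%) and none fell, and 4 or 5 rose with any 1 library left out. The summed level of this list was 8524 to 25662 in parental cells and 15888 to 22763 in HRA, so the groups overlapped. CLC, the Charcot-Leyden crystal protein, read 292, 586 and 211 in parental cells against 1819, 2509 and 2465 in HRA (2.76 ± 0.32). The eosinophil peroxidase gene EPX read 159, 148 and 343 in parental cells against 913, 1054 and 848 in HRA (2.21 ± 0.29), and HDC, histidine decarboxylase, rose by 1.22 ± 0.23. TPSAB1, TPSB2, CPA3, FCER1A, SIGLEC8 and CCR3 of the same list stayed below 10 in all 6 libraries.

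Single markers of other lineages also rose. PAX5, the B cell commitment factor, read 317, 351 and 309 in parental cells and 704, 768 and 713 in HRA (1.16 ± 0.11), while 6 of 9 B cell markers in the table were below 10 in all 6 libraries and the summed level of the 9 was 319 to 375 in parental cells and 734 to 836 in HRA. GZMA, a granzyme of T and natural killer cells, rose by 0.97 ± 0.14, while 9 of 14 markers of those cells were below 10, and their summed level was 741 to 778 in parental cells and 1289 to 1492 in HRA. PECAM1 (2.26 ± 0.30) and ACTA2 (2.45 ± 0.39) rose in a list of fibroblast, endothelial and epithelial markers of which 7 of 11 were below 10 and whose summed level was 129 to 196 in parental cells and 346 to 514 in HRA. The part of these marker levels in the other results was not tested. GIMAP4 and GIMAP6, neighbouring GTPase genes of lymphocytes, fell by 3.00 ± 0.48 and 2.90 ± 0.44, GIMAP4 from 81.4, 42.9 and 115 to 5.58, 9.47 and 10.96. They were 2 of 3 tested GIMAP genes, and the remaining 1 was not called and had a positive log2 difference. All 3 tested HOXC and HOXD genes fell, HOXC4 from 202, 190.2 and 315 to 32.1, 41.9 and 60.9 (−2.37 ± 0.28) and HOXD13 by 0.39 ± 0.08. The call of HOXC9 (log2 difference −1.14 ± 0.31) was lost without parental replicate 2 or 3 or HRA replicate 1 or 3, with adjusted p up to 0.0927.

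Annexin genes of the complement, coagulation and fibrinolysis list rose: ANXA1, which restrains leukocyte migration, read 1280.1, 1448 and 845 in parental cells and 3888, 4091 and 4155 in HRA (1.80 ± 0.18), and ANXA2 rose by 1.05 ± 0.15. In that list of 25, 5 rose and 1 fell (20% and 4%, against 9.3% and 6.23% of all genes). Risen members of the list numbered 3 without parental replicate 1 or HRA replicate 1 and 2 without HRA replicate 2. Of 36 matrix proteins and matrix proteases, 7 rose and 3 fell (19.4% and 8.33%). In this list, 5 members, 1 of the risen and 2 of the fallen among them, passed the filter through 1 group alone. FBLN1, a basement membrane protein, read 7.86, 2.45 and 23.98 in parental cells against 145, 93.3 and 124 in HRA (3.71 ± 0.63), with differences of 3.01 and 4.44 without parental replicates 2 and 3, and FBN1, fibrillin 1, fell by 1.16 ± 0.19. The risen members numbered 4 without HRA replicate 1 and 3 without HRA replicate 2. Of 33 neural adhesion and guidance genes, 5 rose and 2 fell (15.2% and 6.06%). Through the parental libraries alone, 1 of the 2 fallen genes passed the filter. SEMA4D, a semaphorin that leukocytes also carry, rose by 0.80 ± 0.10 and NLGN2, a neuroligin, by 0.97 ± 0.14. In this list 1 gene fell without parental replicate 3 or HRA replicate 2, and 4 fell with the replicate block. Among 59 genes of cyclic AMP and protein kinase C signalling, 4 rose and 4 fell (6.78% each), or 6 and 10 with the replicate block. PDE4B, which breaks down cyclic AMP, rose by 1.32 ± 0.21. The fallen members numbered 0 without parental replicate 2 or HRA replicate 1 or 2 and 1 without parental replicate 3 or HRA replicate 3.

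Lists of chromatin, RNA and protein synthesis genes differed in their called shares, which are set here against 9.3% higher and 6.23% lower over all genes. Of 61 histone modifying enzymes, 3 rose and 4 fell (4.92% and 6.56%), NSD3 on chromosome 8 upwards (0.72 ± 0.09) and SMYD2, SMYD3 and KDM5B on chromosome 1 downwards (−0.69 ± 0.10, −0.63 ± 0.10 and −0.61 ± 0.10). Of 36 Polycomb genes, 5 rose and 5 fell (13.9% each), PCGF5 by 0.95 ± 0.19 and RNF2, the ubiquitin ligase of the complex, by −0.49 ± 0.08, and the risen members numbered 3 without HRA replicate 1 or 2, the fallen members 3 without parental replicate 1 or 3 or HRA replicate 2 and 2 without HRA replicate 1. Of 56 splicing genes 1 rose and 2 fell (1.79% and 3.57%), of 48 ribosome biogenesis genes 2 rose and 1 fell (4.17% and 2.08%), and of 19 aminoacyl-tRNA synthetases none rose and 2 fell (10.5% lower). With the replicate block the same lists gave 3 and 5, 3 and 5, and 0 and 4. Of 37 chromatin remodelling genes 2 rose and 3 fell (5.41% and 8.11%), and of 36 genes recurrently mutated in acute myeloid leukaemia 3 rose and none fell (8.33% higher, and 5 and 3 with the block). With 1 library left out, the fallen members ranged from 1 to 2 for splicing, from 0 to 1 for ribosome biogenesis, from 0 to 2 for the synthetases and from 0 to 1 for the remodellers. The risen members ranged from 0 to 2 for the remodellers, from 1 to 4 for the mutated genes, from 0 to 2 for splicing and from 1 to 3 for ribosome biogenesis. MYC read 19054, 14751 and 18257 in parental cells and 22671, 18763 and 19969.7 in HRA (0.24 ± 0.12, adjusted p = 0.189).

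The remaining lists cover metabolism, signalling and gene clusters, and their shares stand against 9.3% higher and 6.23% lower of all genes. Of 16 purine synthesis genes 1 rose and 1 fell (ADSS, −0.51 ± 0.10, with 3 fallen genes if parental replicate 3 is left out and 2 if HRA replicate 2 is), of 21 folate and one-carbon genes 1 rose (GGH) and 1 fell (MTR, methionine synthase, −0.43 ± 0.09), and of 21 methionine and polyamine genes AZIN1 alone rose (0.45 ± 0.08). These 3 lists had 6.25%, 4.76% and 4.76% of members higher and 6.25%, 4.76% and 0% lower. With the replicate block they had 4, 3 and 3 fallen members. Without parental replicate 1, 2 folate genes fell and 2 methionine and polyamine genes rose. Of 29 genes of NOTCH, Hippo and hedgehog signalling, 3 rose and 2 fell (10.3% and 6.9%), near the shares of all genes. The risen included AMOTL1 (0.67 ± 0.11), an angiomotin that binds YAP, and the fallen TEAD3 (−0.92 ± 0.19), a partner of YAP on DNA. The fallen members numbered 1 without parental replicate 2 or 3 or HRA replicate 1, 2 or 3. Of 38 ion channel genes 5 rose and 2 fell (13.2% and 5.26%), and besides CACNB1 the potassium channel KCNK6 rose (1.10 ± 0.17). Through the HRA libraries alone, 1 of the 5 risen channels passed the filter. The risen channels numbered 3 without parental replicate 3 or HRA replicate 1 or 2, and the fallen channels 0 without parental replicate 2 or 3 or HRA replicate 1 or 3 and 1 without HRA replicate 2 (4 with the replicate block). Of 16 imprinted genes, 4 rose (25%) and none fell. PEG10 on chromosome 7, derived from a retrotransposon, rose from 14718, 17402 and 14049.9 to 26139, 28109.5 and 24959 (0.78 ± 0.11). ZDBF2 rose by 0.99 ± 0.17, and 2 members of the list rose without parental replicate 1 or 2 or HRA replicate 1 or 3. Of 28 nuclear receptor and retinoid genes 2 rose and 2 fell (7.14% each), and the retinol dehydrogenase gene DHRS9 rose by 1.66 ± 0.27. With any 1 library left out, 1 member rose, and the fallen members numbered 0 without parental replicate 2 or 3 or HRA replicate 1 or 3 and 1 without HRA replicate 2. Of 25 WNT signalling genes 1 rose and 2 fell (4% and 8%), or 2 and 4 with the replicate block. Fallen WNT genes numbered 1 without parental replicate 1 or 2 or HRA replicate 1 or 3 and 0 without HRA replicate 2. Of 15 genes of steroid and sulfate ester metabolism 2 rose (13.3%), among them the sulfatase-modifying factor gene SUMF2 (0.55 ± 0.11), and STS fell (6.67%). Without HRA replicate 1 or 2, 1 rose. Of 8 cancer-testis genes 2 rose, CCNA1 and SPAG1 (0.90 ± 0.22), or CCNA1 alone without parental replicate 1 or HRA replicate 1 or 2. Of 7 tested genes of a leukaemia stem cell score, CDK6 rose and DNMT3B fell (−0.58 ± 0.14, not called without parental replicate 2 or 3 or HRA replicate 1 or 3). CDK6, a G1 kinase gene on chromosome 7, rose from 2612, 2444 and 2744 to 5332, 4838 and 5707 (1.02 ± 0.14).

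Where limma called no member of a list in a direction, the other counts were as follows. At an unadjusted p below 0.05, 6 of 21 methionine and polyamine genes were lower, as were 1 of 34 polymerase genes, 2 of 52 lysosomal genes, 1 of 16 imprinted genes, 5 of 36 genes mutated in acute myeloid leukaemia, and 1 of 8 cancer-testis genes. Of 4 MHC class II genes none was called, and 1 was higher at that unadjusted p. The 2 tested markers of monocytes and the 2 of red cells and platelets were not called either, with 1 of the latter higher at that p. None of the metabolite receptors or of the mast cell, basophil and eosinophil markers was lower at that unadjusted p in limma, by edgeR or by DESeq2, and none of the aminoacyl-tRNA synthetases and of the 3 HOXC and HOXD genes was higher. By edgeR no member of any of these lists was called in those directions, and by DESeq2 only 1 lysosomal gene and 2 genes mutated in acute myeloid leukaemia were. With the replicate block, 1 metabolite receptor, 1 polymerase gene and 1 lysosomal gene were called lower. Of the 2 tested markers of T and natural killer cells, 1 was lower at that unadjusted p and with the block.

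**Figure D3:**
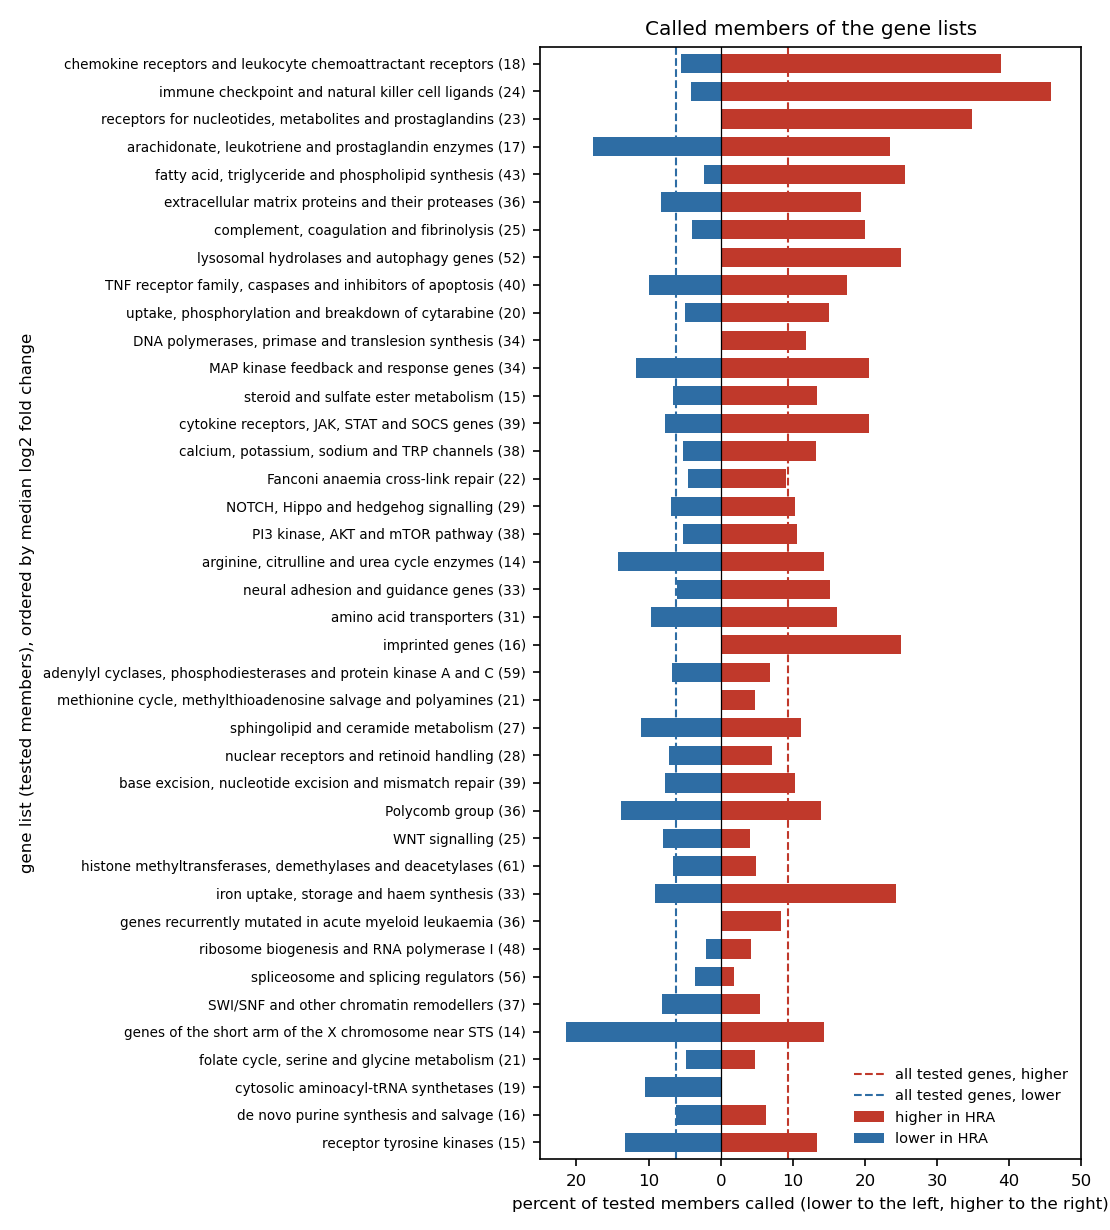
Percent of tested members called higher (to the right) and lower (to the left) in HRA for gene lists with at least 14 tested members, with the number tested in brackets and dashed lines at 9.3% and 6.23% for all tested genes. Immune ligands reach 45.8% higher and chemokine receptors 38.9%, while splicing genes stay below the dashed lines on both sides.

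HRA was tested against HRD, the other resistant line, in the same fit, and 2037 genes were higher in HRA (16.6% of those tested) and 1664 lower (13.6%), 30.2% in all. SUCNR1 stood at 769, 972 and 1141 in HRD and was higher in HRA by 1.93 ± 0.22 (adjusted p = 0.000144). CACNB1 stood at 12.9, 25.6 and 21.4 in HRD, close to parental cells, and was higher in HRA by 3.61 ± 0.28. CCNA1 (1.41 ± 0.28), ENTPD1 (1.64 ± 0.21), S1PR3 (1.97 ± 0.18), SPHK1 (2.22 ± 0.42) and RET (1.14 ± 0.11) were also higher in HRA than in HRD. STAT5A stood at 182, 276 and 198 in HRD, below parental cells, a difference of 3.14 ± 0.16. IL6R (−2.09 ± 0.14), PUDP (−2.55 ± 0.18), STS (−2.84 ± 0.22) and ASS1 (−2.19 ± 0.23) were lower in HRA than in HRD. For CLC (−3.21 ± 0.32), EPX (−2.55 ± 0.29), CCND1 (−2.14 ± 0.28), TBXAS1 (−0.87 ± 0.11) and LYZ (−0.68 ± 0.09), the level in HRD was above that in HRA. C3AR1 (−0.08 ± 0.17, adjusted p = 0.762) and IL5RA (0.37 ± 0.36, adjusted p = 0.469) did not pass that test, which does not show that their levels were equal.

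The direction of change differed between chromosomes. Chromosome 11 had 91 higher and 10 lower of 679 tested genes (13.4% higher), a median of 0.16, and all 13 consecutive blocks of 50 to 79 of its genes had medians between 0.10 and 0.26. Its median stayed between 0.13 and 0.17 with any 1 library left out. Chromosome 8 had 221 higher and 2 lower of 390 (56.7%, median 0.49), and 25 of the 221 reached 2-fold. Chromosome 7 had 133 higher and 4 lower of 603 (median 0.25), chromosome 19 had 158 and 15 of 799 (median 0.30), and chromosome 21 had 22 and 1 of 121 (median 0.17). These 5 chromosomes, chosen after their values were seen, held 625 of the 1140 higher genes and 32 of the 764 lower genes, yet 86 of the 262 genes at least 2-fold higher. On chromosome 1, with 113 higher and 226 lower of 1210, the parts differed. Lower genes gathered in 7 consecutive blocks from CD48 to PGBD2, with medians between −0.46 and −0.41. The blocks from WASH7P to USP33 on the same chromosome had raised medians, between 0.09 and 0.28. Chromosome 4 had 10 higher and 54 lower of 444, with a median of −0.16. In HRD against the same parental libraries, the medians were 0.16 for chromosome 8, 0.33 for chromosome 21, 0.01 for chromosomes 7 and 19, 0.00 for chromosome 11 and 0.02 for chromosome 4. Of the 7 blocks of chromosome 1, the first 2 had HRD medians of 0.12 and 0.05 and the other 5 had HRD medians between −0.35 and −0.24. The 2 comparisons share their parental libraries.

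**Figure D4:**
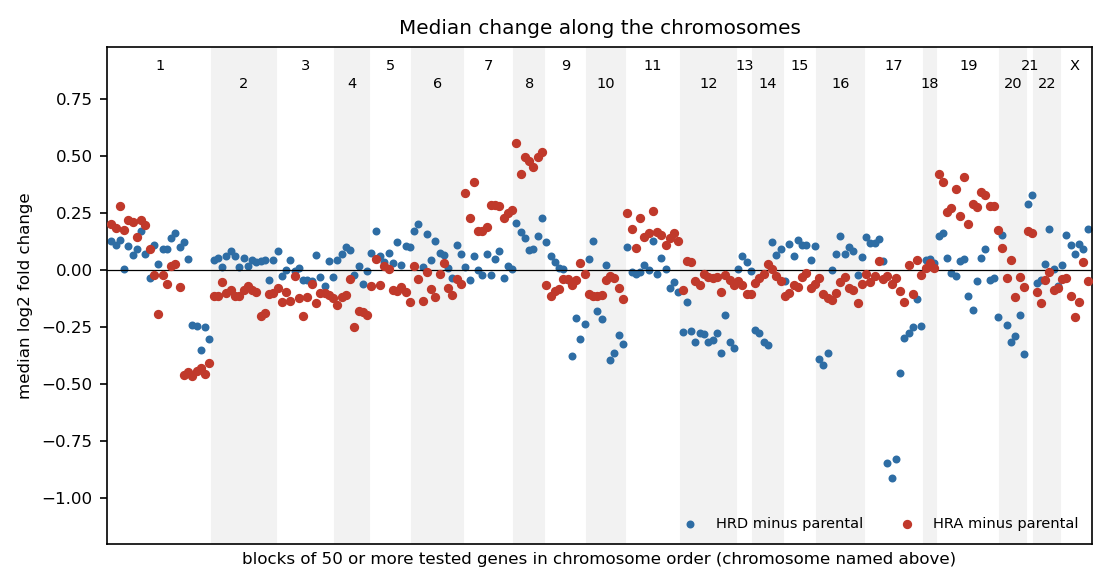
Median log2 fold change over consecutive blocks of 50 to 99 tested genes in chromosome order, for HRA minus parental (red) and HRD minus parental (blue), with chromosomes named at the top. The red blocks of chromosomes 7, 8, 11, 19 and 21 lie above 0 and those of the last part of chromosome 1 lie between −0.46 and −0.41.

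Some genes changed at least 2-fold lay next to each other. Of 30 pairs of neighbouring tested genes that both changed at least 2-fold, 22 were higher together, 4 were lower together and 4 moved in opposite directions. These counts are a description. Over all tested genes 2.14% were at least 2-fold higher and 1.08% at least 2-fold lower, and how many pairs would arise without grouping was not tested. Some pairs, such as SUCNR1 with AADACL2-AS1, overlap and may share reads. Pairs that moved together included SUCNR1 with AADACL2-AS1, STS with PUDP and GIMAP4 with GIMAP6, and opposite pairs included NCS1 with ASS1 and LEPR with PDE4B. By parental mean, 154 of 2320 genes from 10 to 100 were higher in HRA, as were 449 of 4399 from 100 to 1000, 448 of 4818 from 1000 to 10000 and 28 of 518 above that. Rises of at least 2-fold numbered 118, 68, 15 and 0 in these classes. Of 206 genes with a mean under 10, 61 were higher, and the filter's choice of genes that are high in HRA sets that count. Of genes near 0 in either group, 3 are given here that were chosen after their reads were seen. ZNF430 went from 136 reads in parental libraries to 0 in HRA, at least 41.6-fold lower, and ZNF32 from 110 to 2, a ratio of 50.4 with an exact 95% counting interval of 13.6 to 422. TP63 went from 2 to 112 reads, a ratio of 61.1 (16.5 to 511). These intervals cover counting error only. All 3 genes passed the filter through the group where they were high, so their differences are a description.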

How the data were processed

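RNA of 3 groups of HL-60 cells was sequenced, and the analysis started from its processed table. The deposited values (signal) are the authors' counts per gene after division by the size factor of each library. The submitters' processing notes list the build hg19 and, with no role, order or strand setting, DESeq2, HTSeq 0.11.1, Cufflinks 2.2.1, Bowtie2 2.3.5.1, TopHat2 2.1.1 and Picard. Whole reads could be recovered from the steps between values, with 100% of values whole within a tolerance of 0.001, for the count tests edgeR 4.0.16 (quasi-likelihood) and DESeq2 1.42.0, which called 1151 higher and 751 lower and 1376 higher and 992 lower genes.

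Values were tested as log2(value + 1) with limma 3.58.1 in R 4.3.3, in 1 model of all 9 libraries with a variance trend, which understates folds of low values. Genes entered with a value of 10 or more in 3 or more of the 6 parental and HRA libraries. P-values were adjusted over the 12261 genes tested. With 3 libraries against 3, the smallest p of an exact permutation test is 0.1. Deviations from the group means had correlations of 0.24, 0.42 and 0.16 between parental and HRA libraries of the same number, so the replicate number was also run as a block. No source says that a number marks a shared culture or day.

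The genes compared and the 53 gene lists (2019 genes, 1761 in the table) were chosen with earlier results of these data known, and lists are described by counts and medians with no test. Named genes are the 15 largest and 15 smallest log2 fold changes among called genes that did not overlap and whose higher group had a mean of 100 or more, the 10 smallest adjusted p, the 10 highest counts called at least 2-fold in each direction, up to 4 called members a list, 18 fixed genes and called neighbours of the first class. Not every one is printed, and a few genes and 1 list are not reported here. Chromosomes, gene order and promoter sequences came from RefSeq (GRCh38.p14), matched by symbol for 19656 of 20637 genes. Its gene coordinates were not used for the counts, which were made on another build. Alternatives changed the pseudocount (0.5 or 5), the filter, the scaling, the libraries and the tool. The test was tried on simulated data. Reads are not unique molecules, so counting intervals cover counting error only. Tables and figures were made in Python 3.11.15 (matplotlib 3.10.9, scipy 1.17.1, pandas 2.3.3, numpy 2.4.6).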

Additional observations from a re-analysis of the deposited data

Results flagged for a closer look

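Among the named genes reported here, 13 were called in opposite directions in the 2 resistant lines against the parental cells they share, and differed between HRA and HRD by the test of that difference. Lower in HRA than in HRD, as log2 of HRA minus HRD, were TRIM58 (−3.07), RASGRF1 (−2.52), LEPR (−2.19) and CFLAR (−0.88). Higher in HRA were PCGF6 (0.72), the primase subunit gene PRIM1 (0.72), the helicase gene BRIP1 (0.80), CEBPA (1.05), PEG10 (1.17), AMOTL1 (1.20), SLC7A2 (1.86), STAT5A (3.14) and LPL (10.43). The LPL value rests on 4198 reads in the 3 HRA libraries and 0 in the 3 HRD libraries and is not a bound; against a floor of 3 reads over the HRD group, LPL was at least 1690.5-fold higher in HRA. The calls of PRIM1 and BRIP1 against parental cells were lost with at least 1 library left out. In HRD against parental cells the median was −0.19 for chromosome 10 (PCGF6), −0.28 for chromosome 12 (PRIM1) and −0.20 for chromosome 17 (BRIP1 and STAT5A). It was −0.91 for the block that ends with STAT5A and −0.30 for the block from EXOC8 to PGBD2, in which TRIM58 lies. For the chromosomes of the other genes of this paragraph it lay between 0.00 and 0.16. In HRA against parental cells the median was −0.41 for the EXOC8 to PGBD2 block and 0.49 for chromosome 8 (SLC7A2 and LPL). It was 0.25 for chromosome 7 (PEG10), 0.16 for chromosome 11 (AMOTL1) and 0.30 for chromosome 19 (CEBPA). For the remaining chromosomes of these genes it lay between −0.11 and −0.01. The part of these regional medians was not tested.

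Among 8376 genes below the filter, 46 had reads in all 3 HRA libraries and in no parental library, and 58 had reads in all 3 parental libraries and in no HRA library. They fell short of the filter, so the main fit did not test them. Their totals ran from 3 to 70 reads over the 3 libraries that had reads.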

How the results depend on the processing

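No named gene that was called changed direction under any setting run. Of genes near 0 that were not called, SLC29A1 ranged from −0.0431 to 0.2107 and SLFN11 from −0.0494 to 0.0623 with 1 library left out, and MTAP from −0.0225 to 0.0095 (0.0015 without replicate 2 of every group). Leaving out 1 library at a time gave 578 to 951 higher and 330 to 588 lower genes, 186 to 281 genes at least 2-fold higher and 96 to 138 at least 2-fold lower. Without replicate 2 of every group there were 481 higher and 229 lower genes. With the replicate number as a block there were 1569 higher and 1202 lower genes, 299 and 152 of them at least 2-fold. A minimum value of 50 in place of 10 left 174 genes at least 2-fold higher and 76 at least 2-fold lower, because fewer genes were tested. All other settings gave 937 to 1376 higher and 614 to 1078 lower genes. Quantile scaling gave 1190 higher and 1078 lower genes, against 1140 and 764. Of 204 named genes that were called, 142 kept their call with any 1 library left out. A comparison of promoter CpG content is void, because promoter windows matched 65.6% of the at least 2-fold higher and 73.5% of the at least 2-fold lower genes. At these depths, changes of genes with a few reads a library are not detectable.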
